A study of Mus musculus with 20 samples.

Results

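The complement components and receptors measured here are 9 listed genes, C1qa, C1qb, C1qc, C3, C4b, C3ar1, C5ar1, Itgam and Serping1, out of 49671 genes counted in bulk RNA from the mouse hippocampus. They were listed by name, with earlier results of these data known. Each was found once in the tables by its Ensembl identifier, and all 9 had enough counts to be tested. None of the 9 reached an adjusted p under 0.05 between any groups. The members differed much more in level from one another than any of them differed between groups, and the libraries of a group spread widely for C3 and Serping1.

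Complement is a set of proteins that tag particles and cells for removal and can punch holes in membranes. In the classical pathway C1q binds its target, the attached proteases cleave C4 and C2, and the enzyme so formed cleaves C3, whose fragments coat the target or, as C3a, act on a receptor. In the brain, C1q is made mainly by microglia, the resident macrophages, and C1q and C3 are known for marking synapses that microglia remove through complement receptor 3.

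The hippocampi came from adult male wild-type mice of 10 to 12 weeks, 1 frozen hippocampus per mouse and 5 mice in each of 4 groups. Control mice received isotype antibody. The second group, called ICI for immune checkpoint inhibitor, carried no tumour and received anti-CTLA-4 at 1 mg per dose, 3 times a week, and anti-PD-1 at 200 µg per dose, 2 times a week. Melanoma mice carried D4M-3A.UV2 tumours, from a syngeneic mouse melanoma line, after intradermal injection of 500000 cells on both sides. They were given isotype antibody after 1 week of engraftment. The melanoma plus ICI group carried the same tumours and received the same checkpoint antibodies for 3 weeks, and the brains of all groups were taken 72 h after the last injection. The tumours grew in the skin, so the groups describe a hippocampus distant from the tumour, and all tumours derive from this 1 line.

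Library totals lay between 21990624 and 25735149 counts. Levels are given as counts per 1000000 of the scaled library size (CPM). A pair of libraries stood apart, control replicate 4 and melanoma plus ICI replicate 1. Genes with 1000 to 2000 exon bases lay a median of 0.38 and 0.22 log2 units above their mean over all libraries in these 2, while genes with 5000 to 6000 bases lay at -0.15 and -0.10. In the other libraries these medians ran from -0.08 to 0.04. Markers of the hippocampal fields, 8 of 8, had counts in every library. Their summed level was 185 CPM in melanoma plus ICI replicate 3, against 425 to 1190 in the libraries of the other groups. That library had the lowest hippocampal score of the 20 (3.81) and the highest neocortical and endothelial scores (5.28 and 4.73), each the mean log2 CPM of a marker list, and values without it are given below for C3ar1, C4b and C1s1. The summed level of 11 choroid plexus markers ran from 25.2 to 6750 CPM over the libraries, and that of 7 striatal markers reached 1250 CPM in the melanoma group, against at most 182 in control. In each comparison of groups below, the median of the members and the log2 fold change of each member named are given with and without these 2 libraries.

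Promoter sequences from RefSeq (GRCm38.p6) were at hand for 6 of the 9 members, and 3 of them are shown, 1 for each kind of role: a C1q chain, the central component C3, and the receptor chain Itgam. Each line gives the 250 bases before the RefSeq start on the gene's own strand, 5′ to 3′. Capitals mark matches to the motifs searched.
C1qb: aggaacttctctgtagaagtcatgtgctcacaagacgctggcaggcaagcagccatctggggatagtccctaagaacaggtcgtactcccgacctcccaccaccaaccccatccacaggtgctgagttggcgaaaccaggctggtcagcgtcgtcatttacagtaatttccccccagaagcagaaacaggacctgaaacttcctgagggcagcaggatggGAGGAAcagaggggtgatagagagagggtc
C3: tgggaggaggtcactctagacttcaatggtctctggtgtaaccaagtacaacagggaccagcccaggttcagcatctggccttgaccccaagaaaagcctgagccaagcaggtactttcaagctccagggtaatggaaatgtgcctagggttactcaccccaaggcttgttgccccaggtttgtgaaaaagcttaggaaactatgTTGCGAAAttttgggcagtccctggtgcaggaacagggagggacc
Itgam: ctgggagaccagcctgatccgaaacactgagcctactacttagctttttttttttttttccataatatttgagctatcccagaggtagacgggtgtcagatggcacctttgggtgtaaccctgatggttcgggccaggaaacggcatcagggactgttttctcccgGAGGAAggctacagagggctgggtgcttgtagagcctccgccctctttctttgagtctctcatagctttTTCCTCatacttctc

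The C1qb window is chr4:136886201-136886450 on the minus strand, the C3 window chr17:57228137-57228386 on the minus strand, and the Itgam window chr7:128062390-128062639 on the plus strand. The motifs were read on both strands and were chosen with the sequences in view. They were GAGGAA, the core read by PU.1 and other ETS factors, TTGCNNAA for C/EBP, TTCNNNGAA for STAT, and the NF-kB and interferon response element motifs. GAGGAA stood at bases -30 to -25 of C1qb, at -84 to -79 of Itgam and, on the other strand, at -15 to -10 of Itgam and -193 to -188 of C1qc. The C3 window held a C/EBP match at -45 to -38, and the C3ar1 window an NF-kB match on the other strand at -14 to -5. No motif matched in the C5ar1 window. Over 32851 promoter windows of this length, 23.3% held GAGGAA, 9.56% the C/EBP motif, 1.41% the NF-kB motif, 7.02% the STAT motif and 2.98% the interferon motif. A match describes letters only, and the expression data below do not test any factor at these windows.

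Per kilobase of exon, the C1q chains stood far above the receptors. C1qa had a mean of 29.7 CPM per kilobase over the 20 libraries (SD 5.98), C1qb 23.5 (SD 3.39), C1qc 14.5 (SD 1.66) and C4b 9.69 (SD 2.01). Each of these 4 lay above the next gene in the order in 20 of 20 libraries. The place of C4b below C1qc is uncertain, because C4b shares 34.6% of its 50-base stretches with its paralogue C4a and its count may be too low. Serping1 followed at 2.67 CPM per kilobase (SD 1.07), above Itgam in 17 libraries. Itgam stood at 1.46 (SD 0.232), above C3 in 18 libraries. Its place below Serping1 is uncertain, because 66.3% of its 50-base stretches are shared with the gene model Gm49368 and the handling of shared reads is not given in the sources used here. Were reads over the 3450 shared exon bases left out, the count would stand for the other 1574 bases, at 4.64 CPM per kilobase. C3 at 0.554 (SD 0.490) and C3ar1 at 0.392 (SD 0.108) could not be ordered, as C3 was the higher in 11 of 20 libraries. C5ar1 was lowest at 0.232 CPM per kilobase (SD 0.0779), below C3ar1 in 19 libraries.

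**Figure D1:**
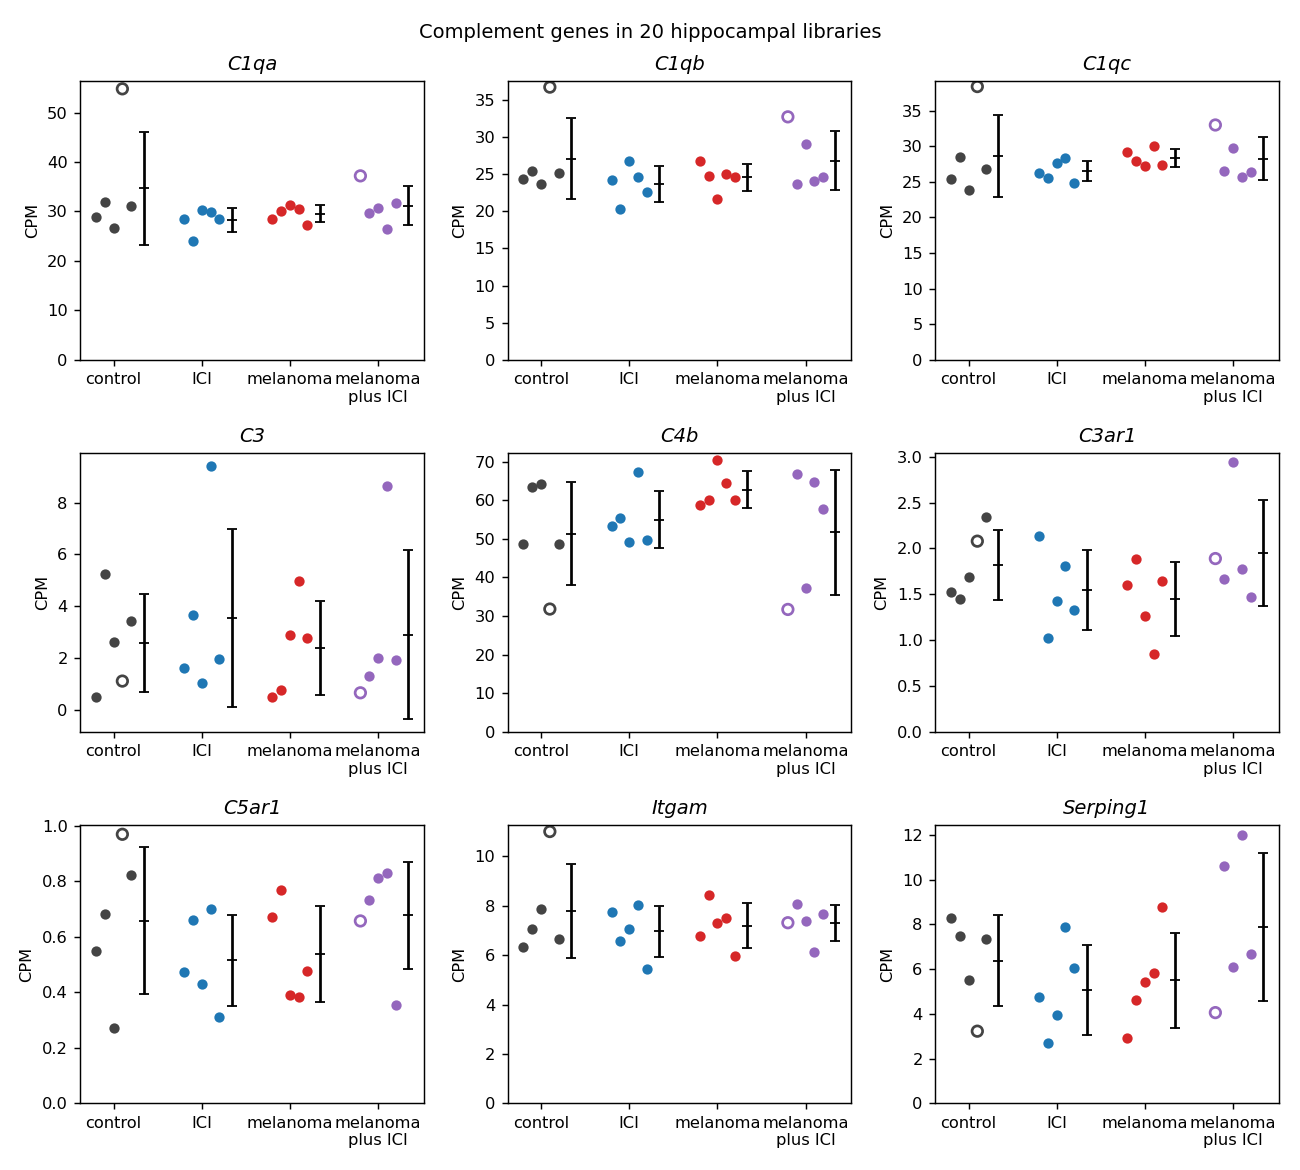
Level of each of the 9 complement genes in CPM (vertical axis, linear) in every library of the 4 groups (horizontal axis). Points are libraries, bars at the right of each group are the mean ± SD of its 5 libraries, and open circles mark control replicate 4 and melanoma plus ICI replicate 1. C1qa, C1qb, C1qc and Itgam have their highest value in the open control circle, and C3 runs from 0.505 to 9.43 CPM.

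C1qa, C1qb and C1qc encode the 3 chains of C1q, the recognition molecule of the classical pathway, and lie next to one another on chromosome 4, minus strand. In the deposited coordinates, which match GENCODE M21 (GRCm38), C1qa (ENSMUSG00000036887) spans 136895917 to 136898803, C1qc (ENSMUSG00000036896) spans 136889804 to 136893065, and C1qb (ENSMUSG00000036905) spans 136880129 to 136886187. All 3 stood at much the same level in every group apart from the 2 libraries named above.

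C1qa stood at 28.9, 31.9, 26.6, 54.8 and 31.1 CPM in control replicates 1 to 5, and at 28.5, 24.1, 30.3, 29.8 and 28.4 CPM under ICI. Melanoma libraries held 28.4, 30.1, 31.4, 30.5 and 27.2 CPM of C1qa, and melanoma plus ICI libraries 37.2, 29.7, 30.8, 26.5 and 31.7 CPM. The 2 highest of the 20 values were those of control replicate 4 and melanoma plus ICI replicate 1, and the 4 groups overlapped. The group means were 34.6 ± 11.4, 28.2 ± 2.46, 29.5 ± 1.69 and 31.2 ± 3.88 CPM (SD, n = 5), in the same order of groups.

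C1qb was measured at 24.3, 25.4, 23.6, 36.7 and 25.2 CPM in control and at 24.2, 20.3, 26.7, 24.6 and 22.6 CPM under ICI. Its melanoma values were 26.7, 24.7, 21.7, 25.0 and 24.6 CPM, and those of melanoma plus ICI 32.7, 23.6, 29.1, 24.0 and 24.6 CPM. As for C1qa, the same control library was highest and the same melanoma plus ICI library second.

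C1qc lay at 25.4, 28.5, 23.9, 38.4 and 26.8 CPM in control and at 26.3, 25.6, 27.7, 28.3 and 24.9 CPM under ICI. The melanoma libraries gave 29.2, 27.9, 27.3, 30.1 and 27.4 CPM, and the melanoma plus ICI libraries 33, 26.5, 29.8, 25.7 and 26.4 CPM. Its coefficient of variation over all libraries, 11.5%, was the lowest of the 9 members, beside 20.1% for C1qa and 14.5% for C1qb. The ratio of C1qa to C1qb in CPM had a median of 1.20 and ran from 1.06 to 1.49, and that of C1qa to C1qc a median of 1.10 and from 0.943 to 1.43, both highest in control replicate 4. C1qc over C1qb had a median of 1.09, between 1.01 and 1.26.

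C4b and C3 are the components cleaved after C1q binds. C4b (ENSMUSG00000073418, chromosome 17, 34728380 to 34743882, minus strand) encodes complement C4, and C3 (ENSMUSG00000024164, chromosome 17, 57203970 to 57228136, minus strand) the component on which all 3 pathways meet. Both are made by astrocytes and other non-neuronal cells of the brain.

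C4b had the most counts of the 9 genes. Control libraries held 48.7, 63.4, 64.2, 31.8 and 48.7 CPM, and ICI libraries 53.4, 55.3, 49.2, 67.4 and 49.8 CPM. The melanoma values were 58.7, 60.0, 70.4, 64.5 and 60.0 CPM, and those of melanoma plus ICI 31.7, 66.8, 37.3, 64.8 and 57.8 CPM. The lowest pair of values came from the same 2 libraries in which the C1q chains were highest. The ratio of C4b to C1qa was 0.581 in control replicate 4 and 0.853 in melanoma plus ICI replicate 1, beside a median of 1.99 over the 20 libraries. C4b shares 34.6% of its 50-base stretches with its paralogue C4a, so its count is uncertain to that extent, and the ratio of C4b to C4a in CPM ran from 8.68 to 21.

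C3 varied most. Its control values were 0.509, 5.23, 2.60, 1.11 and 3.41 CPM and its ICI values 1.63, 3.66, 1.05, 9.43 and 1.96 CPM. Melanoma libraries gave 0.505, 0.768, 2.90, 4.96 and 2.78 CPM, and melanoma plus ICI libraries 0.657, 1.30, 2.01, 8.65 and 1.91 CPM. Every group held libraries near 1 CPM or lower and at least 1 near 5 or higher, so that the highest library exceeded the lowest 18.7-fold and the coefficient of variation was 88.4%. The counts behind these values ran from 12 to 229.

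The receptors for the anaphylatoxins C3a and C5a had the lowest mean levels of the members, and the receptor chain Itgam a higher one. C3ar1 (ENSMUSG00000040552, chromosome 6, 122847138 to 122856161, minus strand) encodes the receptor for C3a, and C5ar1 (ENSMUSG00000049130, chromosome 7, 16246743 to 16259540, minus strand) that for C5a. Itgam (ENSMUSG00000030786, chromosome 7, 128062640 to 128118491, plus strand) encodes CD11b, the alpha chain of complement receptor 3, which binds C3 fragments. Itgam overlaps the gene model Gm49368 on the same strand over 3450 exon bases, and that model held 5 counts in all beside 3430 for Itgam. These counts do not show how many reads over the shared bases were counted for neither, so the count of Itgam may be too low.

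C3ar1 was found at 1.53, 1.45, 1.69, 2.08 and 2.34 CPM in control and at 2.14, 1.02, 1.43, 1.81 and 1.33 CPM under ICI. The melanoma group gave 1.60, 1.88, 1.26, 0.848 and 1.65 CPM, and melanoma plus ICI 1.89, 1.67, 2.94, 1.78 and 1.47 CPM. Its highest value was that of melanoma plus ICI replicate 3, and the groups overlapped.

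C5ar1 gave 0.549, 0.681, 0.273, 0.969 and 0.821 CPM in control and 0.472, 0.662, 0.429, 0.700 and 0.311 CPM under ICI. In melanoma it stood at 0.673, 0.768, 0.390, 0.382 and 0.477 CPM, and in melanoma plus ICI at 0.657, 0.733, 0.813, 0.829 and 0.356 CPM. These values rest on 6 to 21 counts per library, so that counting error alone is large.

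Itgam lay at 6.31, 7.06, 7.88, 11.0 and 6.65 CPM in control and at 7.76, 6.58, 7.05, 8.03 and 5.42 CPM under ICI. Melanoma libraries held 6.77, 8.45, 7.28, 7.51 and 5.95 CPM of Itgam, and melanoma plus ICI libraries 7.31, 8.07, 7.39, 6.12 and 7.65 CPM. Control replicate 4 was again the highest library, and the other 19 spread between 5.42 and 8.45 CPM with no order by group.

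Serping1 (ENSMUSG00000023224, chromosome 2, 84765387 to 84775444, minus strand) encodes C1 inhibitor, the serpin that blocks the proteases bound to C1q. Its control values were 8.31, 7.49, 5.51, 3.23 and 7.34 CPM and its ICI values 4.76, 2.69, 3.95, 7.91 and 6.04 CPM. Melanoma gave 2.94, 4.61, 5.42, 5.81 and 8.77 CPM, and melanoma plus ICI 4.06, 10.6, 6.12, 12.0 and 6.67 CPM. The 2 highest values were both from melanoma plus ICI, whose mean of 7.87 ± 3.28 CPM (SD, n = 5) stood beside 5.07 ± 2.00 under ICI alone, yet the groups overlapped.

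The design asks what the checkpoint antibodies do without and with a tumour, what the tumour does without and with the antibodies, and whether the effect of the antibodies depends on the tumour. These questions were put to all 18427 tested genes with edgeR's quasi-likelihood test and Benjamini-Hochberg adjustment. Of the 9 complement genes, 0 had an adjusted p under 0.05 in 6 comparisons, and over all genes tested the share called was 0% in each. At an unadjusted p under 0.05 the count of members was likewise 0 of 9 in each comparison, by edgeR as fitted here and by DESeq2. The share of all genes past that mark was 5.23% for ICI against control, 5.11% for melanoma against control and 2.38% for melanoma plus ICI against control. It was 5.50% for melanoma plus ICI against melanoma, 8.63% when melanoma plus ICI was set against ICI, and 10.3% in the interaction, the ICI effect with a tumour minus that without one. Other settings passed some members at that mark. By limma voom Serping1 passed when melanoma plus ICI was set against melanoma and against ICI and in the interaction, at an unadjusted p of 0.0200, 0.0109 and 0.0102 (adjusted p = 0.266, 0.364 and 0.260), beside 14.9%, 11.7% and 12.7% of all genes. It passed in the same 3 comparisons by edgeR without the 2 libraries apart, beside 7.11%, 10.1% and 7.99%. Without the filter on low counts C1qa passed for ICI against control (unadjusted p = 0.0447 by edgeR), beside 4.34%, and with a microglial score (the mean log2 CPM of 14 markers) in the fit C1qc passed for melanoma against control (unadjusted p = 0.0327 by edgeR), beside 3.97%. With choroid plexus and meningeal scores, made likewise from 11 and 10 markers, in the fit, 3 members passed for ICI against control, 1 for melanoma against control, 2 each when melanoma plus ICI was set against melanoma and against ICI, and 4 in the interaction, C1qa, C1qb, C3 and C4b. The shares of all genes in those 5 were 13.8%, 12.1%, 15.6%, 14.3% and 24.7%. Comparisons that share a group are not independent of one another. In bulk tissue, fewer cells of a type and less RNA per cell cannot be told apart in any of these differences.

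In tumour-free mice the antibodies were followed by no called difference, and 7 of 9 members had a log2 fold change below 0, with a median of -0.19 beside -0.01 over all genes. Without the 2 libraries apart 7 of 9 were still below 0, but the median was -0.06, and it was -0.05 by limma voom and 0.02 with the microglial score in the fit. In the main edgeR fit, of all 20 libraries without scores, C1qa had the smallest p of any member in any comparison. Its log2 fold change here was -0.29 (SE 0.15, 95% interval -0.60 to 0.01, unadjusted p = 0.0606, adjusted p = 0.766 by edgeR). Without the 2 libraries apart it was -0.07. C1qb stood at -0.19 (interval -0.44 to 0.06) and at -0.06 without those libraries, while C1qc stood at -0.11 (-0.32 to 0.11) and at 0.02 without them. C4b at 0.10 (-0.30 to 0.50) and Itgam at -0.16 (-0.47 to 0.15) had intervals on both sides of 0, and came to -0.04 and -0.005 without those libraries. C3 had the widest interval, -1.08 to 2.02 around 0.47. It stood at 0.27 without the libraries apart and at 1.20 (unadjusted p = 0.0323, adjusted p = 0.350 by edgeR) with the choroid plexus and meningeal scores in the fit. The microglial score, over markers such as P2ry12 and Tmem119, was 4.10 ± 0.14 in control and 3.98 ± 0.10 under ICI (SD, n = 5). Control replicate 4, 1 of the libraries apart, had a score of 4.34, beside 3.98 to 4.11 in the other controls and 3.84 to 4.09 under ICI. With that score in the fit of all libraries the value for C1qa was 0.04.

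For melanoma against control 8 of 9 members lay below 0, with a median of -0.14 beside -0.01 over all genes, and 0 were called. Without the 2 libraries apart 6 of 9 lay below 0 and the median was -0.01, so the shift of the median rests on those libraries. Of the 14 microglial markers 12 lay below 0 here, 5 at an unadjusted p under 0.05, with a median of -0.22. The score was 3.96 ± 0.05 in melanoma beside 4.10 ± 0.14 in control (SD, n = 5). These marker values include control replicate 4, 1 of the libraries apart. Its score was 4.34, beside 3.98 to 4.11 in the other controls and 3.90 to 4.02 in melanoma. With that score in the fit the median of the members was 0.08 and C1qa stood at 0.14. Striatal markers lay above 0 in 7 of 7 cases, all at an unadjusted p under 0.05, with a median of 2.17, and their part in the values of the members was not tested. The exception with all libraries was C4b, at 0.29 (SE 0.19, interval -0.12 to 0.69, adjusted p = 0.877 by edgeR), with means of 62.8 ± 4.83 CPM in melanoma and 51.4 ± 13.3 in control (SD, n = 5). Without the 2 libraries apart, 1 of which is a control, C4b stood at 0.15. C1qa was at -0.23 (-0.54 to 0.08) and at -0.01 without them. C3ar1 at -0.33 (-0.84 to 0.19), C5ar1 at -0.29 (-0.97 to 0.40) and Serping1 at -0.21 (-0.91 to 0.48) also had intervals that include 0. Without the libraries apart these 3 stood at -0.28, -0.12 and -0.39.

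With both treatments against neither, the members centred on 0: the median log2 fold change was 0.01, with 5 members above and 4 below 0, beside 0.00 over all genes. Without the 2 libraries apart the median was 0.07, with 8 above 0. C1qb at -0.01 (interval -0.26 to 0.24), C1qc at -0.02 (-0.23 to 0.20) and C4b at 0.01 (-0.40 to 0.41) were the closest to 0, and came to 0.04, 0.05 and 0.01 without those libraries. The intervals of C1qb and C1qc bound a difference in either direction closely. That of C3, from -1.37 to 1.73 around 0.18, does not, and its value was 0.25 without the libraries apart.

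**Figure D2:**
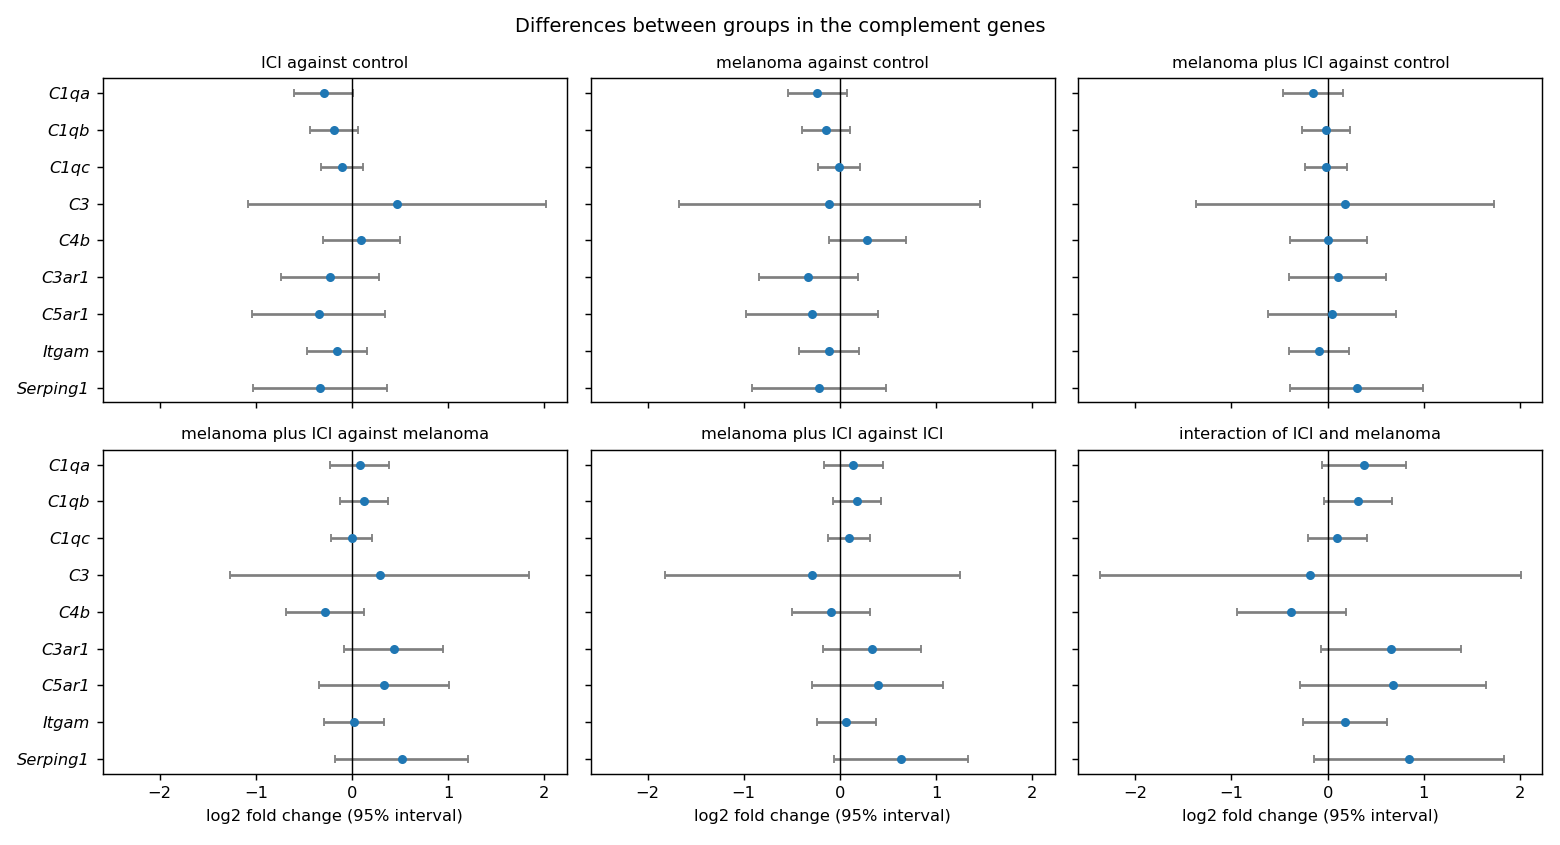
Log2 fold change of each complement gene (horizontal axis) with its 95% interval from edgeR, in 6 panels, 1 for each comparison, the last being the interaction. Every interval includes 0; those of C1qa, C1qb and C1qc are the narrowest and those of C3 the widest.

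Within tumour-bearing mice, melanoma plus ICI against melanoma gave 7 of 9 members above 0, a median of 0.13 beside 0.02 over all genes, and no call. The median was 0.05 without the 2 libraries apart, again with 7 above 0, and -0.005 with the microglial score in the fit. C3ar1 had the smallest p here, at 0.43 (SE 0.24, interval -0.08 to 0.94, unadjusted p = 0.0942, adjusted p = 0.825 by edgeR), from 1.45 ± 0.401 to 1.95 ± 0.576 CPM (SD, n = 5). C3ar1 was at 0.45 without those libraries, but at 0.24 without melanoma plus ICI replicate 3, which held its highest value, and at 0.21 by limma voom. Serping1 stood at 0.52 (-0.18 to 1.21), at 0.69 without the libraries apart and at 0.32 without melanoma plus ICI replicate 4. The meningeal score, over 10 fibroblast markers such as Col1a1 and Dcn, was 3.09 ± 0.62 in melanoma and 3.64 ± 0.49 in melanoma plus ICI (SD, n = 5). All 10 markers lay above 0 here, with a median of 0.63, and with the choroid plexus and meningeal scores in the fit Serping1 stood at -0.09. C4b was at -0.28 (-0.68 to 0.12). It came to -0.14 without the libraries apart, to -0.18 without melanoma plus ICI replicate 3 and to -0.54 (unadjusted p = 0.00861, adjusted p = 0.282 by edgeR) with the scores in the fit.

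Among antibody-treated mice, melanoma plus ICI against ICI again had 7 of 9 members above 0, with a median of 0.14 beside 0.03 over all genes. The median was 0.07 without the 2 libraries apart, with 8 above 0, and 0.006 with the microglial score in the fit. Serping1 was at 0.63 (SE 0.33, interval -0.06 to 1.33, unadjusted p = 0.0727, adjusted p = 0.584 by edgeR) and at 0.80 without the 2 libraries apart (unadjusted p = 0.0192, adjusted p = 0.475). The meningeal score was 3.64 ± 0.49 in melanoma plus ICI and 2.68 ± 0.72 under ICI (SD, n = 5). All 10 meningeal markers lay above 0 in this comparison, 7 of them at an unadjusted p under 0.05, and their summed level reached 232 CPM against 151. With the choroid plexus and meningeal scores in the fit, Serping1 stood at -0.26.

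For 7 of 9 members the interaction gave the log2 fold change farthest from 0 among the 6 comparisons, and for C3 and C1qc it was ICI against control. The interaction joins all 4 groups and has a larger SE, for C1qa 0.21 beside 0.15 for ICI against control. It can therefore lie farther from 0 through spread alone. In the interaction 7 of 9 lay above 0 with a median of 0.32 beside 0.03 over all genes, and again no call. That median was 0.11 without the 2 libraries apart, 0.10 by limma voom and -0.03 with the microglial score in the fit. C3ar1 stood at 0.66 (SE 0.35, interval -0.07 to 1.38, unadjusted p = 0.0726), C1qb at 0.32 (SE 0.17, -0.04 to 0.67, unadjusted p = 0.0758), Serping1 at 0.85 (SE 0.47, -0.14 to 1.83, unadjusted p = 0.0883) and C1qa at 0.37 (SE 0.21, -0.06 to 0.81, unadjusted p = 0.0892), all with an adjusted p of 0.491 by edgeR. Both libraries apart belong to groups that enter the interaction with a positive sign. Without them C1qa was at 0.09 and C1qb at 0.11, while C3ar1 stood at 0.63 and Serping1 at 1.19 (unadjusted p = 0.0149, adjusted p = 0.466). C3ar1 came to 0.47 without melanoma plus ICI replicate 3 and to 0.44 by limma voom. With the choroid plexus and meningeal scores in the fit, Serping1 stood at -0.21 and C3 at -2.15 (adjusted p = 0.137), against -0.18 for C3 without the scores and 0.28 without the libraries apart. C1qb reached 0.52 in that fit, and its adjusted p of 0.120 was the smallest of any member in the 30 settings run, in all of which 0 of 9 members were called. The microglial score in the fit placed C1qa at -0.14, C1qb at -0.03 and C3ar1 at 0.38.

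The members were then compared with one another over the 20 libraries, by Pearson's r and Spearman's rho of log2 CPM with permutation tests adjusted over 36 pairs. Pearson's r passed for 8 pairs, 5 positive and 3 negative, and rho also passed for 3 of them. The 3 pairs of C1q chains moved together, with r = 0.84 for C1qa and C1qb (rho 0.63), 0.87 for C1qa and C1qc (rho 0.65) and 0.88 for C1qb and C1qc (rho 0.83, adjusted permutation p = 0.00018 for r and 0.00036 for rho). Leaving out the 2 libraries farthest from the median of the second gene of each pair gave 0.51, 0.53 and 0.63. Those were the same values as without the 2 libraries apart, and 0 of 36 pairs passed without these. C4b went against the C1q chains over all libraries, at r = -0.65 with C1qa, -0.79 with C1qb and -0.63 with C1qc. Without the libraries apart these became -0.07, -0.47 and -0.07, so the relation of C4b with C1qa and C1qc rests on them. Itgam with C1qa (r = 0.69) and with C1qc (r = 0.61) likewise came to 0.38 and 0.28. Over deviations from the group means 10 of 36 pairs passed.

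The exon length of the genes runs beside this pattern. The C1q chains have 1040, 1088 and 1931 exon bases and C4b has 5695. C1qa followed the difference between short and long transcripts per library with r = 0.92 over all libraries (adjusted permutation p = 0.00126) and 0.57 without the 2 libraries apart. C1qb and C1qc had r = 0.82 and 0.79, which came to 0.16 and -0.04 without them, and C4b had -0.73, which came to -0.04. The part of transcript length in the group differences of these 4 genes was not tested beyond leaving out these libraries.

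**Figure D3:**
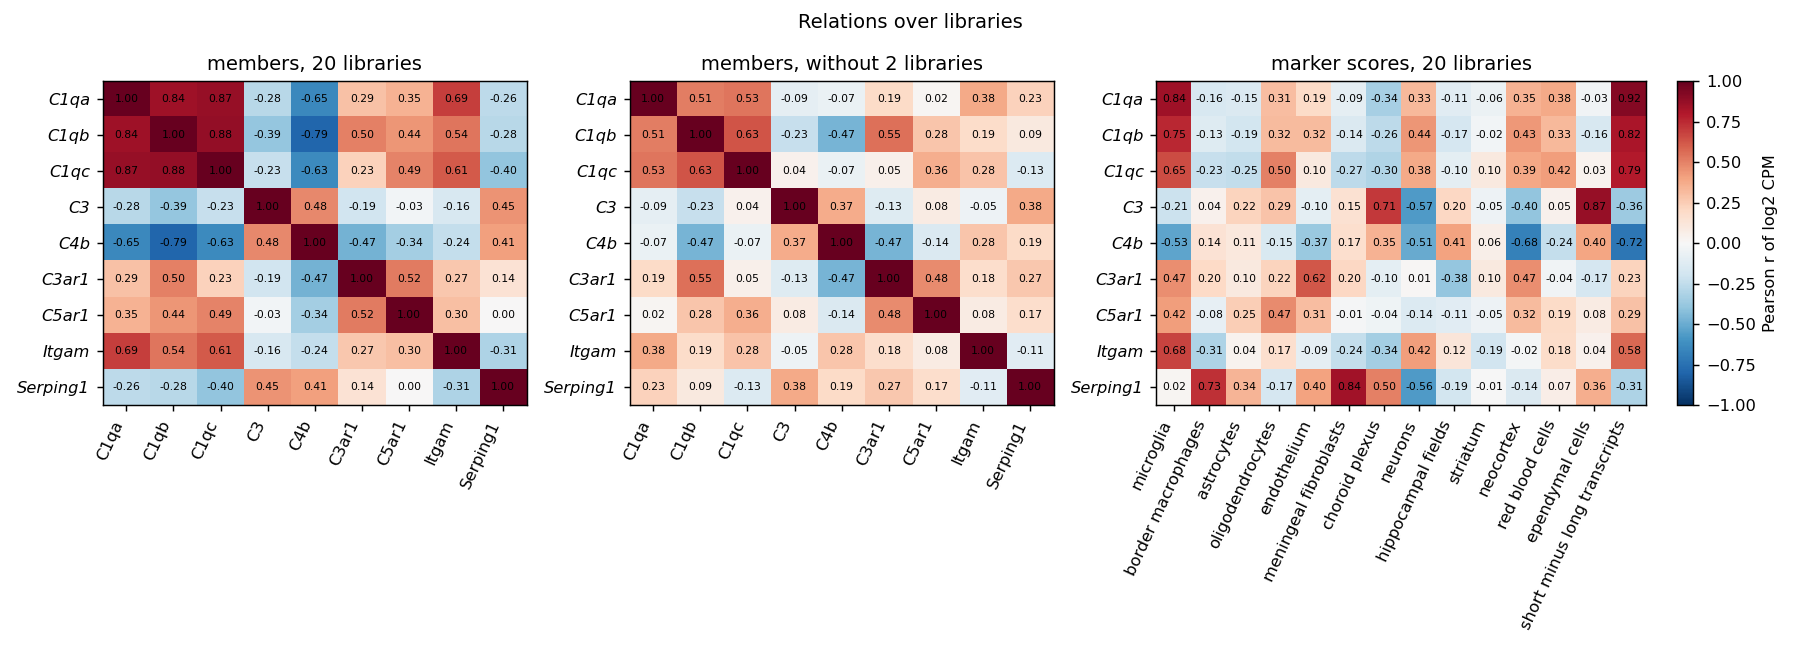
Pearson's r of log2 CPM, from -1 (blue) to 1 (red), between the 9 complement genes over 20 libraries (left) and without the 2 libraries apart (middle), and between the genes and 13 marker scores and the short minus long measure over 20 libraries (right). The block of C1q chains and its negative relation to C4b on the left is paler in the middle panel, where C1qa and C4b stand at -0.07.

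Marker levels of other cells moved with several members. Over 126 pairs of a member and a measure, 13 passed by r, 11 positive and 2 negative, and 4 of these also by rho. Without the libraries apart 3 passed, and over deviations from the group means 16. Of the 13, 5 were with the ependymal score or the transcript length measure, both added after the data were seen, so those are descriptions. Over the other 108 pairs alone 7 passed by r, 6 of them positive, and 3 also by rho. C1qa followed the microglial score at r = 0.85 (rho 0.64, adjusted permutation p = 0.00315 for r and 0.0700 for rho), at 0.67 without the libraries apart and at 0.47 without the 2 libraries farthest from the median. C1qb followed it at 0.75 and Itgam at 0.68, which came to 0.56 and 0.38 without the libraries apart, so that for Itgam the relation rests on those libraries. The r of C1qb was 0.36 without the 2 farthest libraries, so that its size too depends on those. The third chain, C1qc, had r = 0.65 with that score (adjusted permutation p = 0.0618), which came to 0.21. The 14 microglial markers all had counts in every library, and their summed level ran from 322 to 389 CPM in control, 307 to 342 under ICI, 318 to 334 in melanoma and 320 to 357 in melanoma plus ICI. Of 8 markers of monocytes and neutrophils, such as Ccr2 and S100a8, 0 had enough counts to be tested and their summed level stayed between 0.300 and 1.85 CPM. Such cells also carry Itgam and C5ar1. C3ar1 followed the endothelial score at r = 0.62 (adjusted permutation p = 0.0362 over 126 pairs and 0.0504 over 108), which came to 0.36 without the 2 libraries farthest from the median, so that its size depends on those. It was 0.62 without the libraries apart and 0.60 over deviations from the group means. C4b went against the score of 7 neocortical markers at r = -0.68 (rho -0.55, adjusted permutation p = 0.0137 for r and 0.143 for rho). That r was -0.47 without the 2 farthest libraries, -0.58 without the libraries apart and -0.76 over deviations from the group means. For melanoma plus ICI against melanoma, where C4b stood at -0.28, 5 of the 7 neocortical markers lay above 0 with a median of 0.28, and their part in that value was not tested.

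Serping1 followed the meningeal score at r = 0.84 (rho 0.81, adjusted permutation p = 0.00126 for r and 0.00441 for rho), at 0.82 without the 2 libraries farthest from the median and at 0.87 without the libraries apart. It followed the score of border macrophages, the macrophages of the meninges and vessels, at r = 0.73 (rho 0.70, adjusted permutation p = 0.00706 for r and 0.0268 for rho). Of the 7 border macrophage markers 6 had counts in every library, with summed levels from 3.29 to 17.2 CPM. Serping1 and the microglial score had r = 0.02 over all libraries, 0.46 without the libraries apart and -0.18 over deviations from the group means.

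C3 followed the choroid plexus score, over 11 markers such as Ttr and Folr1, at r = 0.71 (rho 0.70, adjusted permutation p = 0.0104 for r and 0.0268 for rho), and at 0.70 without the 2 farthest libraries. All 11 of these markers had counts in every library. C3 stood closer still to a score of 8 markers of ependymal cells, the ciliated lining of the ventricles, at r = 0.87 and rho = 0.85. That list was chosen after the genes most like C3 had been seen, so the value is a description. The r was 0.90 without the libraries apart and 0.93 over deviations from the group means, and the summed ependymal level ran from 13.4 to 62.1 CPM within control and from 20.5 to 82.4 within ICI. Whether these markers account for the spread of C3 within the groups was not tested.

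**Figure D4:**
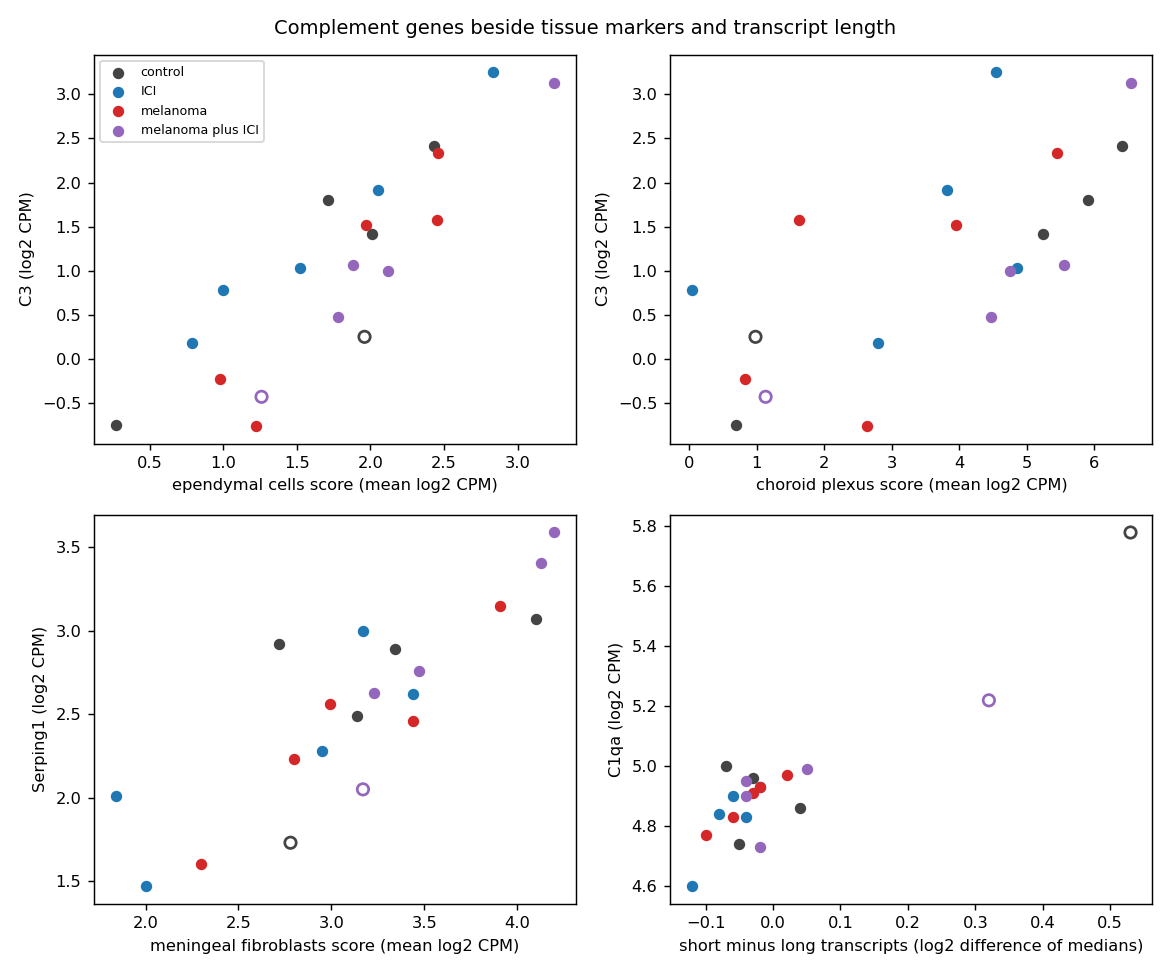
Log2 CPM of C3 against the ependymal and the choroid plexus score, of Serping1 against the meningeal score (mean log2 CPM of each list), and of C1qa against the short minus long transcript measure (log2), 1 point per library coloured by group. Open circles are the 2 libraries apart; they carry the C1qa panel, where r is 0.92 with and 0.57 without them, but not the Serping1 panel, where it is 0.84 and 0.87.

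The genes most like each member were sought among the 15475 tested genes that carry a symbol and average 1 CPM or more, by Pearson's r of log2 CPM over the 20 libraries, as a description. C3 stood nearest to Iqcd (0.90), Ttc16 (0.90), Ttc21a (0.90), Dnah6 (0.89) and Iqub (0.89), of which Dnah6 encodes a heavy chain of ciliary dynein. Serping1 stood nearest to H2-Ab1 (0.93), an MHC class II chain, Cyp1b1 (0.92), the collagen gene Col1a1 (0.90), Slc6a20a (0.90) and Ogn (0.90). Col1a1 and Ogn are also on the meningeal list. C1qa stood nearest to Snf8 (0.94), Timm13 (0.94), Jtb (0.94) and Fau (0.94), none of them a microglial marker of the list. For C1qb the first was Ift20 (0.94), then Ctbp1, Chmp4b, Ubxn1 and Tpgs1, and for C1qc Ubxn1 (0.93), then Tmem189, Vmp1, Mtdh and Ifrd1. C4b stood nearest to Zfp462 (0.92), then Tead1, Adam12, Akap13 and Peak1.

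The low receptors had weaker neighbours. C3ar1 came nearest to Pparg (0.75), followed by Gucy2g, Wdr76, BC030499 and 1110018N20Rik, and C5ar1 to Plgrkt (0.76), followed by Cyb5d2, Lrrc55, Gm10687 and Hacl1. Itgam came nearest to Gfer (0.79) and Immp2l (0.78), then to Selplg (0.77), the ligand of P-selectin on white blood cells and microglia, Ssbp4 and Gm13375.

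The rest of the complement system was read from a list of 55 other genes, 40 of which had enough counts to be tested. None of the 40 was called in any comparison by the main edgeR fit, without scores, beside 0% of all genes. The smallest adjusted p in that fit was 0.346. At an unadjusted p under 0.05 the list had 2 genes higher and 5 lower for ICI against control, beside 2.08% and 3.15% of all genes, and 1 higher and 0 lower for melanoma against control, beside 2.70% and 2.41%. No gene passed in either direction for melanoma plus ICI against control, beside 1.10% and 1.28%. The list had 4 higher and 1 lower for melanoma plus ICI against melanoma, beside 2.63% and 2.87%, and 7 higher and 3 lower for melanoma plus ICI against ICI, beside 4.12% and 4.51%. For the interaction 7 were higher and 4 lower, beside 5.99% and 4.28%. The comparisons share groups, so the same gene can appear in several.

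Of the proteases that act with C1q, C1s1 had 1.68 ± 0.462 CPM in control, 1.07 ± 0.176 under ICI, 1.33 ± 0.329 with melanoma and 1.96 ± 0.732 with melanoma plus ICI (SD, n = 5). Its log2 fold change was -0.65 for ICI against control (unadjusted p = 0.0213 by edgeR). It was 0.56 and 0.87 for melanoma plus ICI against melanoma and against ICI, and 1.21 for the interaction (adjusted p = 0.433 by edgeR). Without melanoma plus ICI replicate 3 these last values came to 0.33, 0.64 and 0.99. C1s2, its close paralogue, went the other way, at 0.71 for ICI against control and -1.14 for the interaction, on a level of only 0.575 CPM. Reads may be split between such copies, so the pair is uncertain.

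In the main edgeR fit, without scores, soluble regulators showed the smallest p of the wider list. Vtn, which encodes vitronectin, an inhibitor of the membrane attack complex, had 73.5 ± 15.5 CPM in control, 52.4 ± 10.0 under ICI, 59.0 ± 11.0 with melanoma and 78.6 ± 17.7 with melanoma plus ICI (SD, n = 5). It stood at -0.49 for ICI against control, 0.41 and 0.59 for melanoma plus ICI against melanoma and ICI, and 0.90 for the interaction (SE 0.24, unadjusted p = 0.00136, adjusted p = 0.346 by edgeR). Endothelial markers moved with these values, 8 of 8 below 0 for ICI against control and 7 of 8 above 0 in the interaction, 3 at an unadjusted p under 0.05 each time. The endothelial score was 4.41 ± 0.13 in control, 4.13 ± 0.12 under ICI, 4.29 ± 0.14 with melanoma and 4.41 ± 0.19 with melanoma plus ICI (SD, n = 5), and its part in the values of Vtn was not tested. Of the meningeal markers 10 of 10 lay below 0 for ICI against control and 10 of 10 above 0 in the interaction. With the choroid plexus and meningeal scores in the fit Vtn stood at -0.29 and 0.55 in those comparisons. Its unadjusted p there was 0.00598 and 0.00117 by edgeR (adjusted p = 0.350 and 0.116), where 13.8% and 24.7% of all genes passed 0.05 unadjusted. In that fit Vtn stood at 0.257 and 0.245 for melanoma plus ICI against melanoma and against ICI. Clu, which encodes clusterin, was at -0.17 for ICI against control on a level of 792 CPM. Of 5 tested soluble regulators 4 lay above 0 in the interaction, and none was called.

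Membrane regulators protect the cell's own surface. Cd59a, which blocks the last step of pore assembly, stood at -0.92 for ICI against control, 1.69 for the interaction and 0.97 for melanoma plus ICI against ICI, and its libraries ran from 2.27 to 16.4 CPM. Its paralogue Cd59b was at 0.74, 0.94 and 1.25 for melanoma plus ICI against melanoma, against ICI and the interaction. Cd55, decay-accelerating factor, was at 0.85 for the interaction and 0.73 for melanoma plus ICI against ICI. Of 5 tested genes of this list 4 lay above 0 in the interaction, 3 at an unadjusted p under 0.05, with a median of 0.85, and none was called. In the same comparison 11 of 11 choroid plexus markers lay above 0 with a median of 2.84, and 10 of 10 meningeal markers with a median of 1.03. With the choroid plexus and meningeal scores in the fit Cd55, Cd59a and Cd59b stood at 0.34, 0.88 and 0.77 there. For melanoma plus ICI against ICI they stood at 0.425, 0.59 and 0.56 in that fit. Cd59b stood at 0.46 for melanoma plus ICI against melanoma, and Cd59a at -0.66 for ICI against control.

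**Figure D5:**
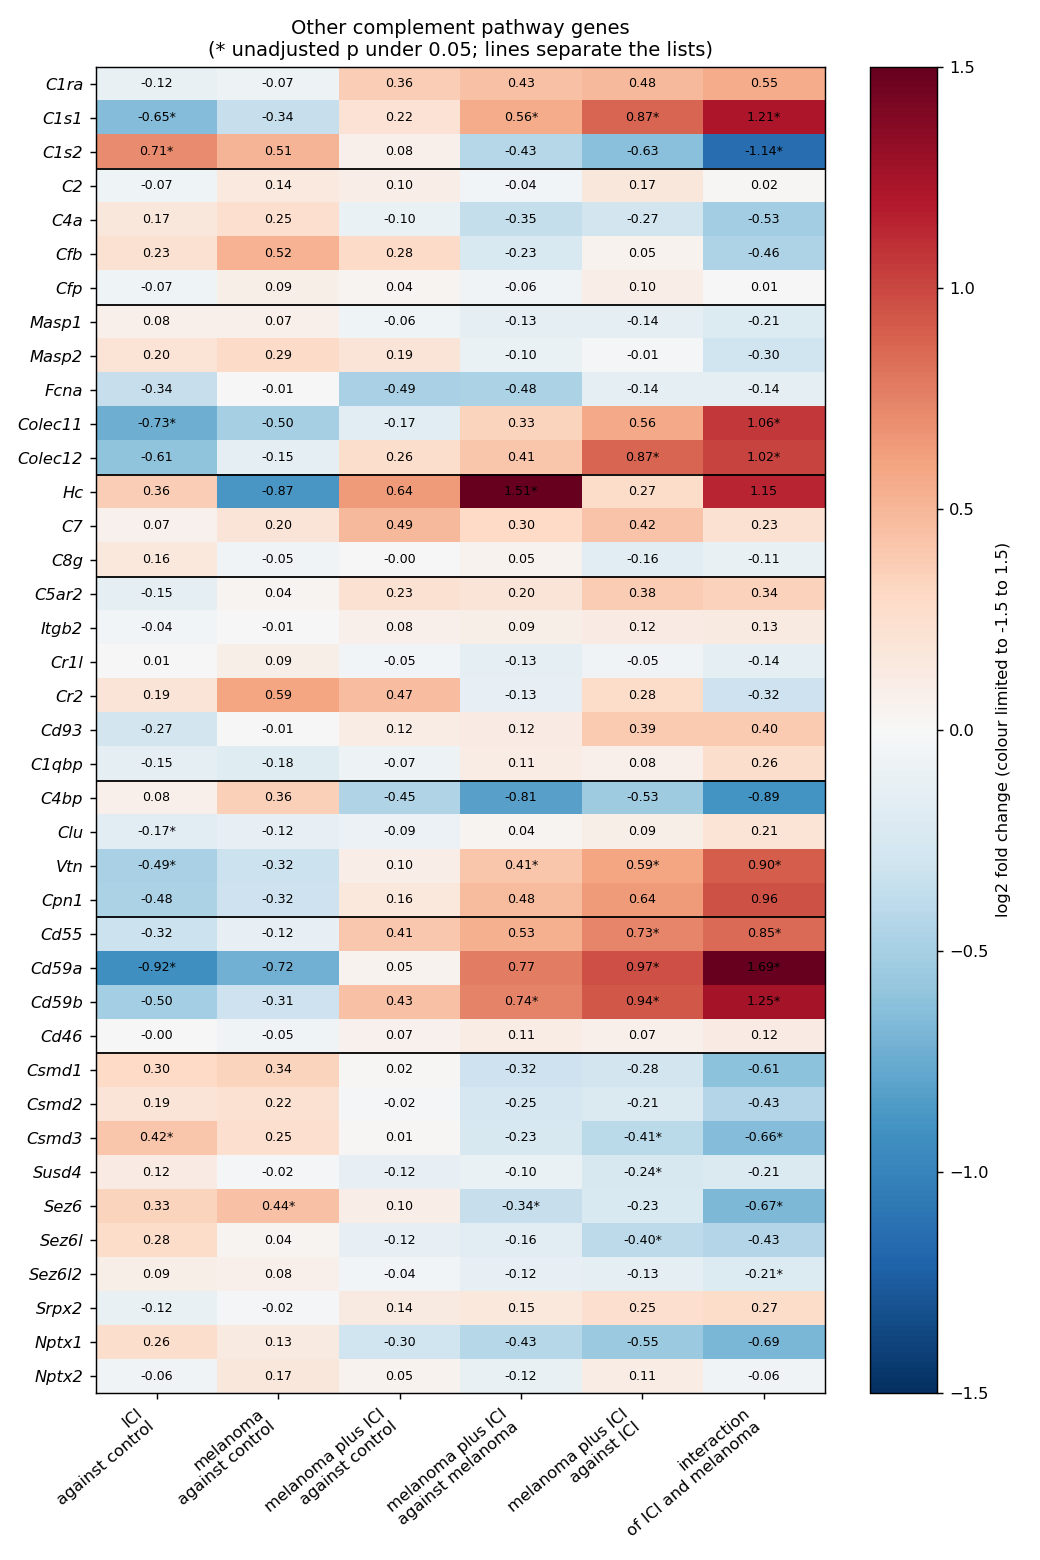
Log2 fold change by edgeR (number and colour, blue below and red above 0, colour limited to 1.5 either way) of other complement genes tested (vertical axis, lists separated by lines) in the 6 comparisons (horizontal axis). Asterisks mark an unadjusted p under 0.05; none passed after adjustment, and the membrane regulators Cd55, Cd59a and Cd59b carry asterisks in the 2 right columns.

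Lectin pathway genes and terminal components gave few such values. Colec11, a soluble collectin, stood at -0.73 for ICI against control and 1.06 for the interaction, and Colec12, a membrane collectin, at 1.02 for the interaction and 0.87 for melanoma plus ICI against ICI. Meningeal markers lay above 0 in 10 of 10 cases in the latter 2 comparisons, with medians of 1.03 and 0.83. With the choroid plexus and meningeal scores in the fit Colec12 stood at 0.08 and 0.07 there. Colec11 stood farther from 0 in that fit, at -0.98 for ICI against control and 1.52 for the interaction (adjusted p = 0.350 and 0.116 by edgeR). Hc, which encodes C5, was at 1.51 for melanoma plus ICI against melanoma, from 0.325 ± 0.239 to 0.936 ± 0.859 CPM (SD, n = 5). Its libraries ran from 0.0853 to 2.37 CPM, and it stood at 0.56 with those scores in the fit.

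Genes known for restraining or binding complement at neurons lay mostly on the other side. Of 10 tested, 9 were below 0 in the interaction, with a median of -0.44, 3 of them at an unadjusted p under 0.05 and none called. Several are long: Csmd1, Csmd2 and Csmd3 have 19030, 17074 and 16882 exon bases and Sez6 5779, beside 3858 for Susd4 and 4210 for Sez6l2. The 2 libraries apart, low in genes of 5000 to 6000 bases, both enter the interaction with a positive sign. The part of transcript length in these values was not tested. Csmd3 stood at 0.42 for ICI against control, -0.66 for the interaction and -0.41 for melanoma plus ICI against ICI. Sez6, a neuronal surface protein, had 206 ± 44 CPM in control, 259 ± 37.5 under ICI, 280 ± 39.6 with melanoma and 221 ± 47.3 with melanoma plus ICI (SD, n = 5). It was at 0.44 for melanoma against control (unadjusted p = 0.0114, adjusted p = 0.834 by edgeR), -0.34 for melanoma plus ICI against melanoma and -0.67 for the interaction. Sez6l2 was at -0.21 for the interaction, and Susd4 and Sez6l at -0.24 and -0.40 for melanoma plus ICI against ICI. The markers of the hippocampal fields, 8 of 8, also lay below 0 in the interaction, with a median of -0.59. For melanoma against control, where Sez6 stood at 0.44, 7 of 7 striatal markers lay above 0 with a median of 2.17. With the choroid plexus and meningeal scores in the fit Sez6 stood at 0.48, -0.49 and -0.94 (adjusted p = 0.315, 0.282 and 0.116 by edgeR), in the order given above. Csmd3 stood at 0.43, -0.72 and -0.43 in that fit, Sez6l2 at -0.16, Susd4 at -0.13 and Sez6l at -0.49. The part of hippocampal and striatal tissue in these values was not tested.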

How the data were processed

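RNA from 20 hippocampi was sequenced in bulk. The authors deposited raw counts per gene, 1 table per library, whose header columns follow the featureCounts layout; the submitters' processing notes name STAR 2.5.2b and DESeq2 1.16.1. The build, the annotation and the use of strand are not given in the sources used here, and 45214 of 49671 genes, with all 9 members, have the start and end of GENCODE M21 (GRCm38). Groups and replicate numbers come from the sample titles. Over 40 pairs of libraries within a group the chi-square per gene was at least 11.5, so no pair agreed within sampling noise. Each library is 1 mouse, per the labels.

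Genes were kept by filterByExpr (minimum count 10, minimum total 15), which left 18427. Counts were scaled by TMM and fitted with edgeR 4.0.16 (quasi-likelihood, robust) in R 4.3.3, with 1 mean per group over all 20 libraries and 16 residual degrees of freedom, with Benjamini-Hochberg adjustment in each of 6 comparisons and a threshold of 0.05. CPM are counts per 1000000 of the scaled library size, and log2 CPM used a prior count of 2. Intervals are 95% intervals of the fit. The fit was tested on simulated data. Scores are the mean log2 CPM of a marker list. Relations used 100000 permutations. The short minus long measure is the median log2 deviation of genes with 1000 to 2000 exon bases minus that of genes with 5000 to 6000. Alternatives were size factors, DESeq2 1.42.0, voom in limma 3.58.1, only the groups compared, no filter, the replicate block, marker scores as covariates and libraries left out.

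Named are all 9 members, the other complement genes with an unadjusted p under 0.05 in any comparison or else the smallest p of a comparison, and the 5 genes most like each member. Of these, 2 are not reported here, and 1 of them is left out of the plot of the wider list. The members and all lists were chosen with earlier results of these data known. The ependymal list and the transcript length measure were added after the data were seen. Shared sequence was counted over stretches of 50 bases of the annotated transcripts.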

Additional observations from a re-analysis of the deposited data

Results flagged for a closer look

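In 6 of 100 groups of 5 libraries, over the 9 members and 16 named pathway genes, 1 library lay far from the others of its group, with a gap to its neighbour of over 0.71 of the group's range. Chance alone gives about 1 in 20. Control replicate 4 held 54.8 CPM of C1qa, where the next control library held 31.9, and 36.7 CPM of C1qb, where the next held 25.4. This is also the library richest in short transcripts. Melanoma plus ICI replicate 4 held 8.65 CPM of C3, beside 2.01 in the next library of its group. It had the highest ependymal score and the highest choroid plexus score of the 20 libraries, 3.25 and 6.54. Melanoma plus ICI replicate 3 held 2.94 CPM of C3ar1, the receptor for C3a, beside 1.89 in the next. It had the highest endothelial and neocortical scores of the 20 libraries, 4.73 and 5.28, and the lowest hippocampal score, 3.81. Melanoma replicate 4 held 7.68 CPM of Cd55 and 7.93 CPM of Cd59a, which both shield cells from complement, beside 4.64 and 4.54 in the next melanoma library. The part of tissue markers and transcript length in these values was not tested.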

How the results depend on the processing

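No setting called any of the 9 complement genes, and scaling by size factors, DESeq2 and dropping the filter on low counts turned no sign among them. Because no difference passed the threshold, a change of sign below is a value crossing 0 within its interval, and the cause was not tested. Depth limits C5ar1 most: counting error at its mean of 14.2 counts is 26.6% of the level, beside a coefficient of variation of 33.5%. For C3ar1 these are 15.8% and 27.6%, and for C3 12.1% and 88.4%. Under other settings 64 of 477 log2 fold changes of members (13.4%) had the opposite sign, and with a library left out 63 of 1080 (5.83%); for the named pathway genes, picked for a small p, it was 0 of 304 and 0 of 700.

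Counts over all genes, 0 in each comparison by edgeR, were 1 for ICI against control, 4 for melanoma against control, 45 for the interaction and 4 for melanoma plus ICI against ICI by DESeq2, and 1 for melanoma against control, 25 for melanoma plus ICI against melanoma and 19 for the interaction by limma voom. A fit of only the groups compared gave 3 for melanoma against control, and leaving out the 2 libraries apart gave 1 for the interaction. With each library left out in turn, the counts ran from 0 to 3 for melanoma against control, 0 to 12 for melanoma plus ICI against melanoma and 0 to 11 for the interaction, each highest without melanoma plus ICI replicate 3. Of the relations, 0 of 36 between members and 3 of 126 with marker levels passed without the 2 libraries apart.

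The replicate numbers did not pair the libraries: over 30 same-numbered pairs the correlation of deviations from the group means had a median of -0.0047 and ran from -0.35 to 0.53, with 10 over 0.1, and 6 of 20 libraries correlated best with their own number. With the replicate number as a block, 0 members and 0 genes were called in each comparison, and for melanoma plus ICI against control C3 stood at -0.26 and C4b at -0.014. Fitting only the groups compared put C4b at -0.008 there.

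With the microglial score in the fit, 24 log2 fold changes changed sign. C1qa stood at 0.035, C1qb at 0.021, C1qc at 0.085, C4b at -0.073 and Itgam at 0.081 for ICI against control. C1qa stood at 0.14, C1qb at 0.11, C1qc at 0.21 and Itgam at 0.16 for melanoma against control. C1qa stood at 0.038, C1qb at 0.10, C1qc at 0.091, C3 at -0.06, C4b at -0.082 and Itgam at 0.044 for melanoma plus ICI against control. C1qa stood at -0.10, C1qb at -0.005 and Itgam at -0.12 for melanoma plus ICI against melanoma. Itgam stood at -0.037 for melanoma plus ICI against ICI. C1qa stood at -0.14, C1qb at -0.026, C1qc at -0.20, C3 at 0.33 and Itgam at -0.20 for the interaction of ICI and melanoma.

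Under limma voom with quality weights, 14 changed sign. C1qc stood at 0.028, C4b at -0.028 and C5ar1 at 0.097 for ICI against control. C1qb stood at 0.001, C1qc at 0.13 and C5ar1 at 0.18 for melanoma against control. C1qa stood at 0.026, C1qb at 0.01, C1qc at 0.052, C3ar1 at -0.025 and Itgam at 0.022 for melanoma plus ICI against control. C4b stood at 0.063 for melanoma plus ICI against ICI. C1qc stood at -0.10 and C3 at 0.34 for the interaction of ICI and melanoma.

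With the choroid plexus and meningeal scores in the fit, 13 changed sign. Serping1 stood at 0.12 for ICI against control. C3 stood at 0.49 for melanoma against control. C1qb stood at 0.067, C1qc at 0.055, C3 at -0.47, C4b at -0.13, Itgam at 0.007 and Serping1 at -0.14 for melanoma plus ICI against control. C1qc stood at 0.094, C3 at -0.95 and Serping1 at -0.091 for melanoma plus ICI against melanoma. Serping1 stood at -0.26 for melanoma plus ICI against ICI. Serping1 stood at -0.21 for the interaction of ICI and melanoma.

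Leaving out the 2 libraries apart turned 10. C1qc stood at 0.017 and C4b at -0.038 for ICI against control. C1qc stood at 0.11 and Itgam at 0.038 for melanoma against control. C1qb stood at 0.038, C1qc at 0.051 and Itgam at 0.066 for melanoma plus ICI against control. C4b stood at 0.047 for melanoma plus ICI against ICI. C1qc stood at -0.077 and C3 at 0.28 for the interaction of ICI and melanoma.

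Leaving out 1 library at a time turned the sign in at least 1 case for 22 values. C1qc ran between -0.17 and 0.018, C3 between -0.31 and 0.90 and C4b between -0.038 and 0.19 for ICI against control. C1qc ran between -0.078 and 0.11, C3 between -0.58 and 0.31 and Itgam between -0.19 and 0.038 for melanoma against control. C1qa ran between -0.24 and 0.07, C1qb between -0.11 and 0.12, C1qc between -0.088 and 0.11, C3 between -0.81 and 0.60, C4b between -0.12 and 0.13, C3ar1 between -0.092 and 0.21, C5ar1 between -0.15 and 0.22 and Itgam between -0.16 and 0.065 for melanoma plus ICI against control. C1qc ran between -0.068 and 0.033, C3 between -0.69 and 0.74 and Itgam between -0.038 and 0.09 for melanoma plus ICI against melanoma. C3 ran between -1.27 and 0.48, C4b between -0.21 and 0.035 and Itgam between -0.013 and 0.13 for melanoma plus ICI against ICI. C1qc ran between -0.017 and 0.17 and C3 between -1.16 and 0.59 for the interaction of ICI and melanoma.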
